A study of Mus musculus with 12 samples.

Results

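The comparison described here set CBP/p300 knockout cells (KO) against wild-type cells (WT) when both had been given doxycycline (Dox). Its members were the libraries labelled CBP/p300 KO + Dox and WT + Dox, 3 of each, which made 6 of the 12 libraries of the series, and all 12637 genes of the count table were compared. The other 6 libraries had the same genotypes with the solvent DMSO and serve only to show where the genotype difference under doxycycline was not the one seen without it. Fibroblasts of mouse embryos (MEFs), connective tissue cells that had been immortalised and were grown in serum, made up all samples. The KO cells carried Crebbp fl/fl and Ep300 fl/fl alleles and stably expressed Cre-ERT2, a Cre recombinase that enters the nucleus when it binds 4-hydroxytamoxifen (4-OHT), which was used to deplete CBP and p300. The labels do not say whether the WT cells came from the same stock, carried floxed alleles or Cre-ERT2, or were given 4-OHT, so loss of CBP and p300, exposure to 4-OHT and a difference between cell lines cannot be told apart. Doxycycline was given at 30 µg/ml for 24 hours with no other antibiotic. Nothing in the labels says that replicates were separate cultures, so the spread on which p-values rest may be a technical one.

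CBP (encoded by Crebbp) and p300 (encoded by Ep300) are closely related lysine acetyltransferases. They bind a wide range of transcription factors, CREB, NF-kappa B, SMADs, p53 and HIF among them, and acetylate histones and other proteins at enhancers and promoters of active genes. Doxycycline is an antibacterial tetracycline that also blocks the ribosomes of mitochondria. Cells with disturbed mitochondrial translation are known to turn on the integrated stress response, in which the transcription factor ATF4 raises genes for amino acid supply.

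Between 50295363 and 52173143 reads per Dox library were counted in genes. Levels are given in CPM (counts per 1000000 counts, scaled by TMM), and on their log2 the first principal component held 98.2% of the variance of these 6 libraries and separated KO from WT. The second held 0.558%, and there WT Dox replicate 1 lay apart, at 9.17 against -5.31 and -3.83 for the other WT Dox libraries. KO Dox replicate 3 lay on the same side, at 5.9 against -4.1 and -1.84 for the other KO Dox libraries. On leaving out WT Dox replicate 1, 3516 genes differed at least 2-fold, against 3471 with it. Ep300 was lower in KO, at 196, 178 and 179.5 CPM in WT and 111, 113 and 115 CPM in KO, a log2 fold change of -0.71 ± 0.033 (n = 3 and 3, SE; edgeR adjusted p = 1.7e-14). Crebbp had 63.5, 61.6 and 60.4 CPM in WT and 53.7, 56.3 and 57.0 CPM in KO, a log2 fold change of -0.15 ± 0.029 (n = 3 and 3, SE; edgeR adjusted p = 4.1e-05), or -0.02 and not called without composition scaling. Reads outside the floxed exons count towards both genes, so these values do not check the deletion.

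Nearly the whole transcriptome differed between the genotypes under doxycycline, and the large differences were more often losses than gains. Of 12637 genes, 11363 (89.9%) were called in edgeR's quasi-likelihood test, where the p adjusted by Benjamini and Hochberg lay under 0.05, 5701 higher in KO (45.1%) and 5662 lower (44.8%). At least 2-fold were 3471 genes (27.5%), 1371 of them higher (10.8%) and 2100 lower (16.6%). At least 8-fold were 100 higher and 444 lower genes. The KO and WT libraries did not overlap for 11337 genes (89.7%). A gene that merely passed the test was thus no exception here, so each gene group below is described by its members past 2-fold as well, beside these shares of all genes. The median log2 fold change of all genes was 0.01. Leaving composition scaling out moved it by 0.133, and directions that this turned are named where they occur. Without that scaling 6514 genes were called higher and 4917 lower. At 2-fold 1748 were then higher and 1849 lower, so the size of the excess of losses at 2-fold depends on the scaling. The words higher and lower, for a gene without its own p, mean that it was called in this test, and fold changes are KO against WT with Dox on the log2 scale. Standard errors (SE) printed for the largest losses are too small where KO reads are few.

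**Figure D1:**
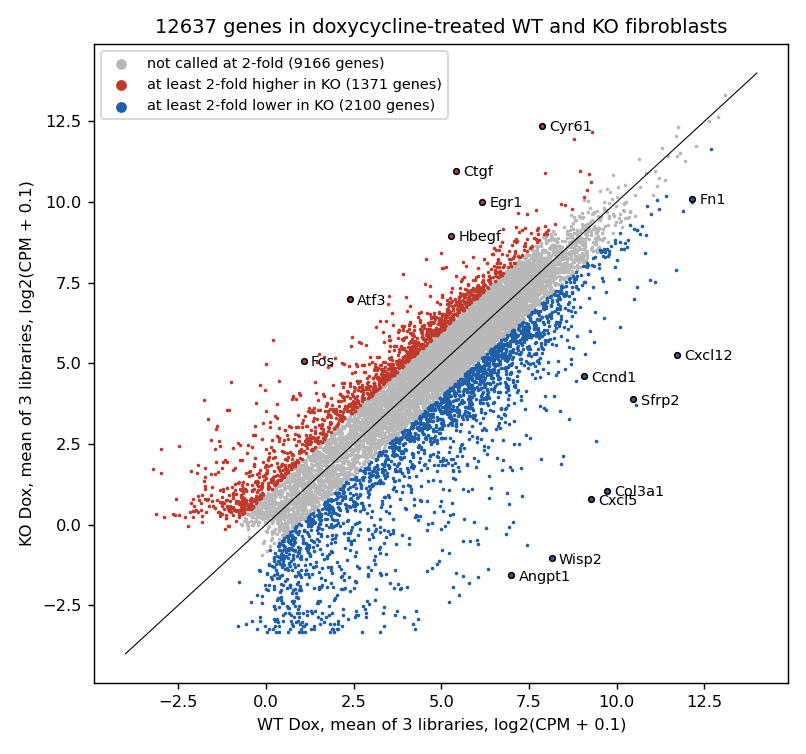
Mean log2(CPM + 0.1) of 12637 genes in the 3 WT Dox (x axis) and 3 KO Dox libraries (y axis), with the line of equal levels. Red points are the 1371 genes at least 2-fold higher in KO and blue points the 2100 at least 2-fold lower, and the blue cloud reaches farther from the line than the red.

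Genes for the extracellular matrix that fibroblasts lay down were lower in KO. Col3a1, the gene of type III collagen (ENSMUSG00000026043, chromosome 1, positions 45311538 to 45349706, plus strand), had 874, 836 and 852 CPM in the 3 WT Dox libraries and 1.84, 2.0 and 2.04 CPM in the 3 KO Dox libraries. Each KO library held little of a transcript that was abundant in every WT library, and the log2 fold change was -8.76 ± 0.040 (n = 3 and 3, SE; edgeR adjusted p = 5.5e-36). Col6a3, a chain of the beaded-filament collagen VI, stood at -6.39 ± 0.050, from 359 ± 19.5 CPM (SD, n = 3) in WT to 4.26 ± 0.353 in KO. Col1a1, the major chain of bone and skin collagen, stood at -2.39 ± 0.022, and its partner Col1a2, with which it forms type I collagen, at -0.70 ± 0.023. Of 29 measured genes for fibrillar collagens and their processing, 24 were lower, 17 of them at least 2-fold, and 5 were higher, 2 at least 2-fold, with a median of -1.35. The collagen crosslinking enzyme gene Lox had 1474, 1439 and 1436 CPM in WT and 128, 128 and 129 CPM in KO (-3.50 ± 0.022). Pcolce and Adamts2, which take part in trimming procollagen, stood at -3.22 and -5.38. The exceptions at 2-fold were Col11a1 (2.01 ± 0.033), a minor fibrillar collagen best known from cartilage, and Loxl4 (2.91 ± 0.037), a relative of Lox, both higher in KO.

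Glycoproteins of the matrix followed the collagens. Of 26 measured genes, 23 were lower (20 at least 2-fold) and 2 higher (1 at least 2-fold), with a median of -2.26. Fibronectin, Fn1, had 4776, 4373 and 4502 CPM in WT and 1083, 1093 and 1123 CPM in KO (-2.05 ± 0.027, SE, n = 3 and 3, edgeR adjusted p = 4.6e-27). Periostin (Postn), versican (Vcan) and the small proteoglycan biglycan (Bgn) stood at -4.16 ± 0.031, -3.98 ± 0.060 and -3.82 ± 0.026. Tenascin C (Tnc), a matrix protein of healing and developing tissue, was the 1 member at least 2-fold higher, at 1.09 ± 0.027. Basement membrane genes were mixed: of 13 measured, 8 were lower and 5 higher, with the laminin gene Lamb2 at 1.33 ± 0.025 and the nidogen gene Nid2 at -2.62 ± 0.032. Enzymes that degrade matrix, with their inhibitors, were lower in 20 of 24 cases (15 at least 2-fold). The gelatinase gene Mmp9 had 48.2, 48.4 and 50.7 CPM in WT and 0.247, 0.225 and 0.223 CPM in KO (-7.71 ± 0.081), and the inhibitor gene Timp3 stood at -5.97 ± 0.072. Its relative Timp1 was higher, at 1.66 ± 0.026.

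**Figure D2:**
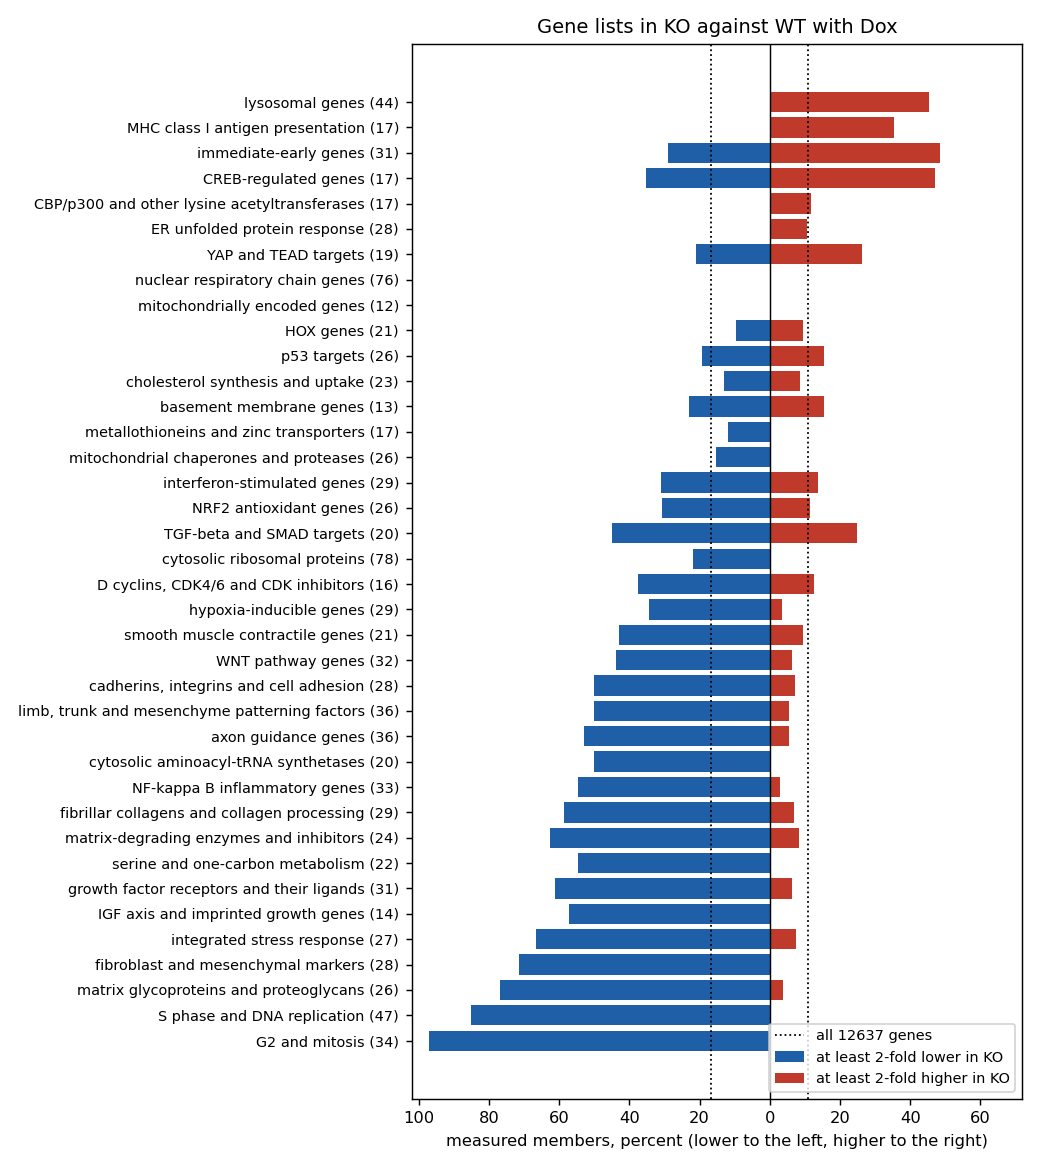
Share of the measured members of each gene list (number in brackets) at least 2-fold lower (blue, left) or higher (red, right) in KO Dox than in WT Dox. Dotted lines mark the shares of all 12637 genes, 16.6% lower and 10.8% higher. G2 and mitosis genes had the largest share lower, 33 of 34, and of the lysosomal genes 20 of 44 were higher and 0 lower.

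Markers by which mesenchymal cells are known were lower as well, while most of them were still detected in KO cells. Of 28 measured fibroblast and mesenchymal markers, 25 were lower (20 at least 2-fold), 2 were higher, none by 2-fold, with a median of -2.35. The list includes Col1a1 and Col1a2 from above. Pdgfra and Pdgfrb, the receptors for platelet-derived growth factor, stood at -3.15 ± 0.033 and -2.38 ± 0.026. Vim, the intermediate filament of mesenchymal cells, had 2136, 2236 and 2208 CPM in WT and 184, 184 and 183 CPM in KO (-3.58 ± 0.024). Prrx1, a homeobox factor of limb mesenchyme, stood at -3.03 ± 0.025, and its paralog Prrx2 at -3.56 ± 0.049. Snai2 and Snai1, repressors of epithelial genes, stood at -4.60 ± 0.040 and -3.04 ± 0.037, whereas Twist1 was nearly level at 0.07 ± 0.029, a call that was lost on leaving out WT Dox replicate 1 or 2 or KO Dox replicate 1 or 2, and Zeb1 slightly higher at 0.19 ± 0.042. The hyaluronan receptor gene Cd44 had 462 ± 6.27 CPM in WT and 447 ± 5.52 in KO, a small difference that was not called without WT Dox replicate 1 or 3 and turned upward without composition scaling.

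Patterning factors showed the same direction. Of 36 measured limb, trunk and mesenchyme factors, 28 were lower (18 at least 2-fold) and 6 higher (2 at least 2-fold), with a median of -0.97. Sox9, the master factor of cartilage, had 171, 167 and 169 CPM in WT and 11.8, 12.2 and 11.3 CPM in KO (-3.84 ± 0.033). Its relatives Sox4 and Sox11 stood at -2.85 ± 0.045 and -3.19 ± 0.050, and Eya1, a developmental transcription cofactor, at -3.24 ± 0.043. HOX genes, which carry positional identity, were split: of 21 measured, 12 were higher and 7 lower, with a median of 0.14. Hoxb9 had the largest difference of these, with 146 ± 5.55 CPM (SD, n = 3) in WT and 815 ± 8.86 in KO (2.48 ± 0.025). Hoxa5 had 53.8, 54.2 and 53.8 CPM in WT and 53.1, 55.2 and 54.0 CPM in KO, which did not differ beyond the spread (0.00 ± 0.028).

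Of the defining markers of other cell types, many were not among the genes measured, and the chondrocyte and bone list stood out by its summed level. None of 12 epithelial markers was among the genes measured, 2 of 12 endothelial markers were (Flt1 with 2.89 CPM in WT and 1.16 in KO, and Egfl7 with 3.52 CPM in WT and 0.926 in KO), and 2 of 13 skeletal muscle markers. Of 12 macrophage markers 4 were measured: Lyz2 was lower (-1.86 ± 0.072), Csf1r and Cd14 were not called, and Cd68, a lysosomal membrane protein found in many cells, was higher at 4.18 ± 0.081, with 1.19 CPM in WT and 21.6 in KO. Of 10 adipocyte markers 2 were measured, and Fabp4 had 30.1, 31.3 and 30.7 CPM in WT and 0.361, 0.375 and 0.334 CPM in KO (-6.42 ± 0.079). Of 12 neural and glial markers 6 were measured and none was called higher, with the neuronal tubulin gene Tubb3 at -4.32 ± 0.080. Of 12 markers of chondrocyte and bone cells 5 were measured and all were lower, the alkaline phosphatase gene Alpl among them at -4.60 ± 0.11. Summed over its measured members, the macrophage list stood at 22.5 to 23.9 CPM in the WT and 34.4 to 37.0 CPM in the KO libraries, the endothelial list at 6.17 to 6.79 and 1.95 to 2.28, and the skeletal muscle list at 5.74 to 6.55 and 3.69 to 3.91. The neural and glial list stood at 155 to 161 CPM in WT and 67.0 to 69.6 in KO, and the adipocyte list at 32.9 to 34.6 and 1.5 to 1.54. The chondrocyte and bone list summed to 4742 to 4929 CPM in WT and 1099.8 to 1118 in KO, most of it from Spp1, the gene of osteopontin, a secreted protein of bone that other cells make too, with 4537 CPM in WT and 1031 in KO (-2.14 ± 0.024). The fibroblast list moved the same way and summed to 10081 to 10251 CPM in WT and to 3540.1 to 3563 in KO. The part of any change in cell makeup in the differences described here was not tested.

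Genes for chemokines and other inflammatory products of NF-kappa B were among those with the largest losses. Cxcl12, which draws blood stem cells and lymphocytes to stromal cells (ENSMUSG00000061353, chromosome 6, positions 117168535 to 117181367, plus strand), had 3352, 3407 and 3412 CPM in the 3 WT Dox libraries and 38.0, 38.4 and 39.0 CPM in the 3 KO Dox libraries, a log2 fold change of -6.46 ± 0.028 (n = 3 and 3, SE; edgeR adjusted p = 4.1e-36). Cxcl5, a neutrophil chemokine (ENSMUSG00000029371, chromosome 5, positions 90759360 to 90761624, plus strand), had 617, 616 and 617 CPM in WT and 1.56, 1.78 and 1.56 CPM in KO (-8.56 ± 0.039, SE, n = 3 and 3, edgeR adjusted p = 5.5e-36). In both genes the KO values lay far below every WT value. Of 33 measured NF-kappa B inflammatory genes, 24 were lower (18 at least 2-fold) and 7 higher (1 at least 2-fold), with a median of -2.0. The chemokine genes Ccl7, Ccl5 and Ccl2 stood at -5.85 ± 0.039, -8.13 ± 0.072 and -2.25 ± 0.025, the cytokine gene Il6 at -5.20 ± 0.12, and complement C3 at -3.28 ± 0.031. The genes of the NF-kappa B subunits themselves differed little: Nfkb1 was not called (0.04 ± 0.022), and Nfkb2 and Relb stood at 0.40 ± 0.024 and 0.13 ± 0.032. Nfkbia, which encodes the inhibitor I kappa B alpha, was higher at 0.61 ± 0.027, and Icam1, an adhesion molecule, was the member at least 2-fold higher, at 2.08 ± 0.081, with 1.93 CPM in WT and 8.13 in KO.

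Interferon-stimulated genes split, with 16 of 29 lower (9 at least 2-fold) and 10 higher (4 at least 2-fold, or 2 on leaving out WT Dox replicate 2 or 3 or KO Dox replicate 3). The antiviral gene Ifit1 had 36.9, 37.2 and 37.3 CPM in WT and 0.399, 0.543 and 0.390 CPM in KO (-6.38 ± 0.083), and the ubiquitin-like modifier gene Isg15 stood at -3.41 ± 0.13. Irf7, an interferon regulatory factor, was higher at 2.09 ± 0.11, with 0.975 CPM in WT and 4.14 in KO, as was Ddx58, the sensor RIG-I, at 0.98 ± 0.039. Genes for antigen presentation by MHC class I were higher or level: of 17 measured, 12 were higher (6 at least 2-fold) and 1 was lower. The peptide-loading factor gene Tapbp had 90.0, 89.5 and 90.5 CPM in WT and 388, 387 and 379 CPM in KO (2.10 ± 0.021) and the light chain gene B2m stood at 0.88 ± 0.025. The heavy chain genes H2-K1 and H2-D1 stood at 4.65 ± 0.084 and 3.12 ± 0.062, but reads of such polymorphic, near-identical genes can be split in counting, so these values are uncertain.

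Growth factor and receptor genes were mostly lower. Of 31 measured growth factors and receptors, 24 were lower (19 at least 2-fold) and 6 higher (2 at least 2-fold), with a median of -1.38. Among the ligands, Angpt1, which stabilises vessels through the receptor TIE2, had 132, 125 and 126 CPM in WT and 0.228, 0.206 and 0.279 CPM in KO (-9.05 ± 0.068). Fgf7, Kitl and Vegfd, ligands for epithelial, blood-forming and lymphatic cells, stood at -4.47 ± 0.027, -5.56 ± 0.055 and -5.29 ± 0.071. Among the receptors, Egfr stood at -2.27 ± 0.041 while Erbb3 was higher, at 3.07 ± 0.090, with 1.16 CPM in WT and 9.71 in KO. Hbegf, an EGF receptor ligand and the gene of a diphtheria toxin receptor in human cells, had 38.8, 38.9 and 39.2 CPM in WT and 499, 502 and 496 CPM in KO (3.68 ± 0.027, SE, n = 3 and 3, edgeR adjusted p = 4.4e-32), all KO libraries far above all WT libraries. Grem1, a secreted BMP antagonist, stood at -6.86 ± 0.039, the heparin-binding growth factor Ptn at -6.85 ± 0.034 and the peptide hormone Apln at -6.52 ± 0.057.

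WNT pathway genes were mostly lower. Of 32 measured, 24 were lower (14 at least 2-fold) and 7 higher (2 at least 2-fold). Sfrp2, a secreted WNT antagonist (ENSMUSG00000027996, chromosome 3, positions 83766321 to 83774316, plus strand), had 1392, 1433 and 1451 CPM in WT and 14.8, 15.3 and 14.2 CPM in KO (-6.59 ± 0.032, SE, n = 3 and 3, edgeR adjusted p = 1.6e-35). Rspo2, which potentiates WNT signals, stood at -5.98 ± 0.051 and the receptor gene Fzd1 at -2.71 ± 0.032, while Ctnnb1, beta-catenin, stood at -0.23 ± 0.019. The ubiquitin ligase genes Rnf43 and Znrf3, which remove Frizzled from the membrane, were higher, at 2.18 ± 0.11 and 0.35 ± 0.041. Wisp2, of the CCN family and named for its induction by WNT (ENSMUSG00000027656, chromosome 2, positions 163820861 to 163833146, plus strand), had the largest loss of all genes whose mean log2 CPM was 3 or more and which met the naming rules given below, with 277, 289 and 285 CPM in the 3 WT Dox libraries and 0.304, 0.393 and 0.464 CPM in the 3 KO Dox libraries (-9.50 ± 0.061, SE, n = 3 and 3, edgeR adjusted p = 3.1e-33). Of 36 axon guidance genes 29 were lower (19 at least 2-fold), among them the semaphorin receptor gene Nrp2 (-4.89 ± 0.048) and the repellent Slit3 (-2.19 ± 0.025), and Sema3b was higher at 1.48 ± 0.046. Of 28 adhesion genes 21 were lower (14 at least 2-fold), with Vcam1, an adhesion molecule for leukocytes, at -2.54 ± 0.027 and the integrin gene Itgb1 higher at 0.83 ± 0.021.

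All 13 called members of 14 measured genes of the IGF axis and imprinted growth genes were lower, 8 of them at least 2-fold. Igfbp4, which binds and restrains IGFs, stood at -4.72 ± 0.061, and Grb10, an imprinted adaptor of insulin receptors, at -1.58 ± 0.027. The imprinted noncoding RNA gene H19 had 9.38 ± 0.427 CPM in WT Dox (SD, n = 3) and no counts in any KO Dox library, so it was at least 165-fold lower against a floor of 3 counts per library. Other genes among the 12 largest losses at a mean log2 CPM of 3 or more were the protease inhibitor gene Serpina3g (-8.31 ± 0.052), which has near-identical neighbours and is uncertain for that reason, the xanthine oxidase gene Xdh (-7.33 ± 0.059), the pseudokinase gene Trib2 (-7.16 ± 0.050), the sphingosine 1-phosphate receptor gene S1pr3 (-7.09 ± 0.060) and the growth-arrest gene Gas1 (-6.57 ± 0.038), a Hedgehog coreceptor. Some losses named above, such as that of Angpt1, were larger but fell outside this rule.

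Against this background of losses, a group of rapidly inducible genes was higher in KO. Ctgf, a matricellular CCN protein (ENSMUSG00000019997, chromosome 10, positions 24595442 to 24598683, plus strand), had 39.2, 47.0 and 42.0 CPM in the 3 WT Dox libraries and 2016, 2011 and 1960.4 CPM in the 3 KO Dox libraries, a log2 fold change of 5.54 ± 0.048 (n = 3 and 3, SE; edgeR adjusted p = 3.7e-21). Its family member Cyr61 (ENSMUSG00000028195, chromosome 3, positions 145646976 to 145649981, minus strand) had 221, 240.1 and 236 CPM in WT and 5262, 5323 and 5166 CPM in KO (4.50 ± 0.029, SE, n = 3 and 3, edgeR adjusted p = 3.1e-33). Every KO library lay far above every WT library in both, while Wisp2 of the same family had gone the other way. Of 31 measured immediate-early genes, which growth factors and stress switch on without new protein synthesis, 21 were higher (15 at least 2-fold) and 10 lower (9 at least 2-fold), with a median of 0.96. Fos, a subunit of the factor AP-1 (ENSMUSG00000021250, chromosome 12, positions 85473890 to 85477273, plus strand), had 2.21, 2.11 and 1.73 CPM in WT and 34.6, 33.0 and 34.2 CPM in KO (4.07 ± 0.063, SE, n = 3 and 3, edgeR adjusted p = 6.4e-26). Atf3, a stress-induced repressor (ENSMUSG00000026628, chromosome 1, positions 191170296 to 191218039, minus strand), had 4.98, 4.91 and 5.63 CPM in WT and 132, 124 and 123 CPM in KO (4.61 ± 0.044, SE, n = 3 and 3, edgeR adjusted p = 4.5e-30), and the zinc finger factor Egr1 had 68.4, 74.6 and 72.2 CPM in WT and 1047, 1025 and 1031 CPM in KO (3.85 ± 0.027, SE, n = 3 and 3, edgeR adjusted p = 1.4e-32). Maff, a small MAF factor, stood at 3.43 ± 0.027, the antiproliferative gene Btg2 at 3.37 ± 0.033 and the nuclear receptor gene Nr4a1 at 2.93 ± 0.030. On the other side were Myc, with 171, 173 and 172 CPM in WT and 17.3, 17.5 and 17.6 CPM in KO (-3.30 ± 0.031), Klf4 (-2.69 ± 0.068), and the AP-1 subunit genes Fosl1 (-2.33 ± 0.045) and Fosl2 (-1.53 ± 0.030).

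**Figure D3:**
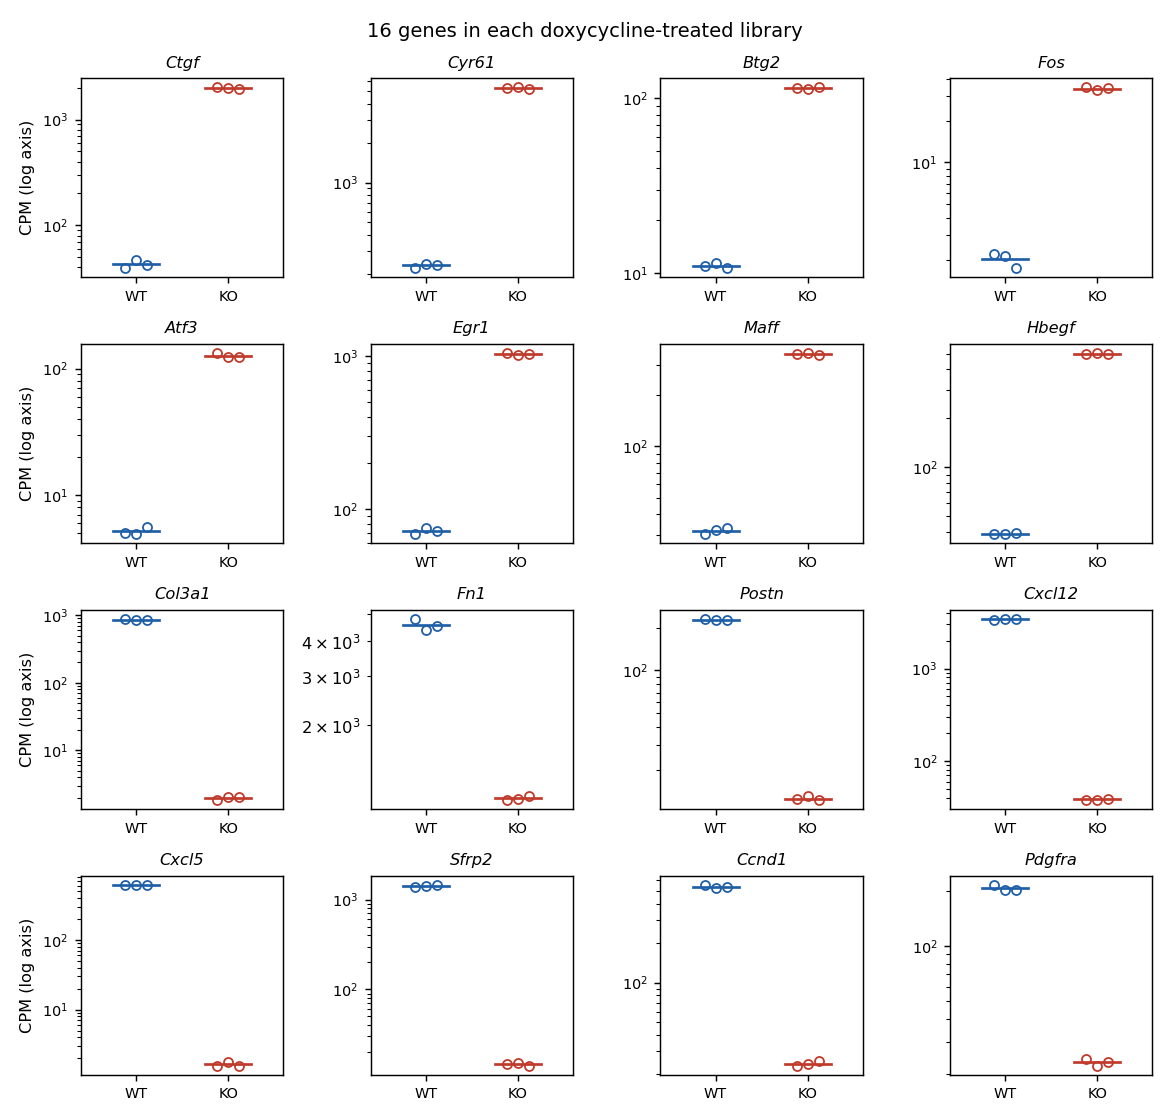
CPM of 16 genes in each of the 3 WT Dox (blue) and 3 KO Dox libraries (red), on log axes that differ between panels, with a bar at the group mean. The upper 8 genes, from Ctgf to Hbegf, were higher in KO and the lower 8, from Col3a1 to Pdgfra, were lower, and in no panel did the groups overlap.

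Genes that CREB is known to regulate were divided too. Of 17 measured, 10 were higher (8 at least 2-fold) and 7 lower (6 at least 2-fold), and many of them are also immediate-early genes. Pde4b, a cyclic AMP phosphodiesterase, and Cited2, whose product binds CBP and p300, stood at -3.93 ± 0.047 and -2.84 ± 0.033, and the kinase gene Sik1 at -2.25 ± 0.044. The promoters of 4 of the higher genes and of Col3a1 are printed to show what such genes do and do not share. They are the 250 bases before the start of each gene in RefSeq, on build GRCm38.p6, from 5′ to 3′ on the gene's own strand, and capitals mark each TGACGT or its reverse complement, the short form of the site of CREB and ATF factors.
Fos (chr12:85473640-85473889, plus strand): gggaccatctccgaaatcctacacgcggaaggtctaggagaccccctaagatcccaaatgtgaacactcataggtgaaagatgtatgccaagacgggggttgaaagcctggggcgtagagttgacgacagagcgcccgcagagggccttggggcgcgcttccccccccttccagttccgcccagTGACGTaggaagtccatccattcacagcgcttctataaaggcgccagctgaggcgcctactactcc
Atf3 (chr1:191183334-191183583, minus strand): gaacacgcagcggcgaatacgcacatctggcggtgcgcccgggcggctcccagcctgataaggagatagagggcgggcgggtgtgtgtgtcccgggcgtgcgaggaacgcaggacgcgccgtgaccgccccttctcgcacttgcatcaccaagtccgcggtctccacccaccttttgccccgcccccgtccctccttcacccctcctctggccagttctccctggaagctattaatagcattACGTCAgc
Cyr61, listed as Ccn1 (chr3:145649986-145650235, minus strand): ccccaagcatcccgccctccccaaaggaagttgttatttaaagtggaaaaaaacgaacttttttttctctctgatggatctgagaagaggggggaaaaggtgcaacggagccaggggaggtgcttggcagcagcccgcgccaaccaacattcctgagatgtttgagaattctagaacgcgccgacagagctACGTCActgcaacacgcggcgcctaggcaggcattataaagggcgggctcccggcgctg
Btg2 (chr1:134079156-134079405, minus strand): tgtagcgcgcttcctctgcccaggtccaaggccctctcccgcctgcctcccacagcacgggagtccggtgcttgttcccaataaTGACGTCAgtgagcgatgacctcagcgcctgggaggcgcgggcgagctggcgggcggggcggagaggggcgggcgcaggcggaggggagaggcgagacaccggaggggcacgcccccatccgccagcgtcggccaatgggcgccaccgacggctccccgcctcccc
Col3a1 (chr1:45311288-45311537, plus strand): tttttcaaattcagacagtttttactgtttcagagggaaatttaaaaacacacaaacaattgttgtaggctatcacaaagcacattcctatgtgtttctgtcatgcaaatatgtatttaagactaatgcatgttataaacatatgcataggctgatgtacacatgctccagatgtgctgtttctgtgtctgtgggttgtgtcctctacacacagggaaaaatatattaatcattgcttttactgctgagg
The 4 higher genes held the short site, which begins 66 bases before the start in Fos, 8 in Atf3 and 59 in Cyr61, and in Btg2 it is part of the full site TGACGTCA, which begins 166 bases before the start and holds the short site on both strands. These 4 were chosen with their promoters in view. The Col3a1 window held none, and it held no CpG at all, against 15 in Fos and 27 in Btg2. The short site lay in 139 of 1235 windows (11.3%) of protein-coding genes at least 2-fold higher, in 121 of 1884 (6.42%) of those at least 2-fold lower and in 1170 of 11688 (10.0%) of all. A RefSeq window was found for 9103 of 11396 protein-coding genes, some with several starts. The median number of CpG per window was 15 for the higher genes, 13 for the lower and 16 for all, and the short site itself contains a CpG. AP-1 sites, TGANTCA on either strand, lay in 4.62% of the windows of higher genes and 5.52% of those of lower genes, against 4.26% of all. TATA boxes, TATAAA, lay in 6.32% and 8.81%, against 6.18%. A match is a run of letters and not evidence of binding.

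Targets of YAP and TEAD, the effectors of the Hippo pathway, include Ctgf and Cyr61. Of 19 measured, 11 were higher (5 at least 2-fold) and 7 lower (4 at least 2-fold). Ankrd1, a muscle ankyrin repeat gene that marks YAP activity, had 107, 111 and 110.4 CPM in WT and 586, 577 and 573 CPM in KO (2.40 ± 0.022), and the Hippo kinase gene Lats2 stood at 1.17 ± 0.029. Gadd45a and Nt5e were lower, at -2.29 ± 0.054 and -1.73 ± 0.069. TGF-beta and SMAD targets were divided. Of 20 measured, 12 were lower (9 at least 2-fold) and 8 higher (5 at least 2-fold). Id1, Id2 and Id3, inhibitors of basic helix-loop-helix factors and BMP targets, stood at -4.57 ± 0.058, -4.14 ± 0.082 and -5.22 ± 0.048, with Id1 at 90.6, 98.1 and 101 CPM in WT and 4.10, 4.51 and 3.55 CPM in KO. Skil, a SMAD corepressor, and Tgfb1, the ligand itself, were higher at 2.05 ± 0.039 and 1.64 ± 0.029, beside Ctgf. Contractile genes, which TGF-beta and SRF raise in myofibroblasts, were lower in 17 of 21 cases (9 at least 2-fold), with the smooth muscle actin gene Acta2 at -2.08 ± 0.036 and the filamin gene Flna at -1.48 ± 0.027.

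Most genes of the lysosome, the compartment in which cells break down proteins, lipids and sugars, were higher in KO. Of 44 measured, 39 were higher (20 at least 2-fold) and 3 lower, none of them 2-fold, with a median of 0.95. The sialidase gene Neu1 had 24.5, 26.8 and 25.8 CPM in WT and 172, 169 and 167 CPM in KO (2.72 ± 0.031, SE, n = 3 and 3, edgeR adjusted p = 2e-28). The heparan sulfate enzyme gene Naglu, the sphingomyelinase gene Smpd1 and the glycogen-degrading Gaa stood at 1.94 ± 0.028, 1.91 ± 0.024 and 1.65 ± 0.022. Subunits of the proton pump were higher too, Atp6v0d1 by 1.62 ± 0.025 and Atp6v1a by 1.25 ± 0.022, whereas the protease gene Ctsb and the cholesterol carrier gene Npc2 were lower at -0.28 ± 0.019 and -0.33 ± 0.021. Sort1, which sorts proteins towards lysosomes and is not on the list, was among the 12 largest gains at a mean log2 CPM of 3 or more, with 24.3, 23.3 and 23.4 CPM in WT and 298, 301 and 299 CPM in KO (3.66 ± 0.027, SE, n = 3 and 3, edgeR adjusted p = 2.9e-32). Genes of the unfolded protein response of the endoplasmic reticulum were higher in 20 of 28 cases, mostly by less than 2-fold. Past 2-fold were 3 (10.7%, no more than the 10.8% of all genes), or 5 without composition scaling. The higher genes included the sensor genes Ern1 (1.06 ± 0.030), Atf6 (0.91 ± 0.026) and Eif2ak3 (0.59 ± 0.033), and the chaperone gene Hspa5 had 1044 ± 11.6 CPM in WT and 1430.1 ± 11.3 in KO. The other gains among the 12 largest by the rule given for Sort1 were Hist1h1c (3.88 ± 0.039) and Hist1h2bc (3.58 ± 0.038), a linker and a core histone gene with near-identical copies, the endocytic adaptor gene Hip1r (3.64 ± 0.058), the exchange factor gene Ralgps1 (3.79 ± 0.056) and the membrane protein gene Tmem62 (3.59 ± 0.055).

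The listed genes of S phase, G2 and mitosis were all lower. Of 47 S phase and replication genes, 47 were lower and 40 of them at least 2-fold, with a median of -1.57, and of 34 G2 and mitosis genes 34 were lower and 33 at least 2-fold, with a median of -1.85. The replicative helicase gene Mcm7 had 428, 432 and 441 CPM in WT and 108, 108 and 107 CPM in KO (-2.01 ± 0.023), the mitotic kinase gene Plk1 111, 119.5 and 113 CPM in WT and 28.0, 27.0 and 26.9 CPM in KO (-2.07 ± 0.033), and the proliferation marker Mki67 stood at -1.70 ± 0.060. In bulk RNA fewer cells in a phase and less RNA per cell cannot be told apart. D cyclins, CDK4/6 and CDK inhibitors were mixed: of 16 measured, 11 were lower (6 at least 2-fold) and 4 higher (2 at least 2-fold). Ccnd1, the cyclin that opens G1, had 553, 529 and 533 CPM in WT and 23.3, 24.0 and 25.2 CPM in KO (-4.48 ± 0.029, SE, n = 3 and 3, edgeR adjusted p = 3.8e-33), and Cdk4, its kinase, stood at -1.41 ± 0.025. Among the inhibitor genes, Cdkn2a and Cdkn2b stood at -1.56 ± 0.030 and -1.94 ± 0.028, and Cdkn1a at -0.60 ± 0.022, while Cdkn1b was higher by 0.29 ± 0.028. Targets of p53 split, 12 of 26 higher and 13 lower, with Plk3 at 2.56 ± 0.038 and Plk2 at -3.30 ± 0.033, both stress-responsive polo-like kinases. All 78 of 78 measured genes of cytosolic ribosomal proteins were lower, 17 of them at least 2-fold, with a median of -0.77. Rpl12 had 1464, 1561 and 1569.7 CPM in WT and 581, 565 and 541 CPM in KO (-1.45 ± 0.027), and without composition scaling 76 were lower, 6 of them at least 2-fold, with a median of -0.63. Processed pseudogenes, which are often copies of ribosomal protein genes and can take their reads, moved with them under doxycycline: their mean log2 CPM over 256 such genes was 1.45 to 1.53 in the WT Dox and 0.96 to 1.02 in the KO Dox libraries. Their median log2 fold change was -0.60 with Dox but 0.05 with DMSO, where the ribosomal protein genes had a median of -0.71. The part of processed pseudogenes in the result was not tested.

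Genes of the integrated stress response were lower in KO than in WT under doxycycline. Of 27 measured genes of the integrated stress response, 23 were lower in KO (18 at least 2-fold) and 3 higher (2 at least 2-fold), with a median of -1.47. Atf4, the transcription factor of the response, had 624, 643 and 640.1 CPM in WT and 267, 260.1 and 261 CPM in KO (-1.27 ± 0.023, SE, n = 3 and 3, edgeR adjusted p = 1.1e-24), and Atf5, its relative, stood at -1.76 ± 0.026. Trib3, a pseudokinase that feeds back on ATF4 (ENSMUSG00000032715, chromosome 2, positions 152337422 to 152344032, minus strand), had 98.2, 101 and 103 CPM in WT and 9.41, 8.88 and 8.38 CPM in KO (-3.50 ± 0.045, SE, n = 3 and 3, edgeR adjusted p = 1.8e-27). Cth, which makes cysteine (ENSMUSG00000028179, chromosome 3, positions 157894248 to 157925077, minus strand), had 101, 103 and 103 CPM in WT and 7.73, 8.22 and 7.67 CPM in KO (-3.70 ± 0.036, SE, n = 3 and 3, edgeR adjusted p = 7.9e-30). Among amino acid transporters, the cystine carrier gene Slc7a11 stood at -2.32 ± 0.071 and the leucine carrier gene Slc7a5 at -2.39 ± 0.030. Asns, which makes asparagine, had 581 ± 12.1 CPM in WT and 217 ± 4.78 in KO (-1.42 ± 0.024). The 3 higher genes were Atf3, described above, Ppp1r15a, which ends the response by directing dephosphorylation of eIF2 alpha (1.17 ± 0.031), and Ddit3, the factor CHOP (0.42 ± 0.034).

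Metabolic genes that ATF4 raises were lower too. Of 22 serine and one-carbon genes, 21 were lower (12 at least 2-fold). Most of this was also present with DMSO, where 11 were at least 2-fold lower and the median was -1.03, against -1.35 with Dox. Phgdh, which opens serine synthesis, and Shmt2 and Mthfd2, which pass its carbon into mitochondrial folates, stood at -2.20 ± 0.025, -2.56 ± 0.030 and -2.13 ± 0.023, and the proline synthesis gene Pycr1 at -3.41 ± 0.046. Thymidylate synthase (Tyms), on the same list, is also an S phase gene. Of 20 cytosolic aminoacyl-tRNA synthetase genes, which charge tRNAs, 19 were lower (10 at least 2-fold), with Lars at -1.60 ± 0.021 and Tars at -1.46 ± 0.021, and Qars, the exception, was higher by 0.35 ± 0.027. Mitochondrial chaperones and proteases were divided, 15 of 26 lower and 9 higher. Those past 2-fold were the peptidase gene Pitrm1 (-1.60 ± 0.022), the chaperonin gene Hspd1 (-1.28 ± 0.022), the HSP70 gene Hspa9 (-1.11 ± 0.022) and Atf5, which the list shares with the stress response. The respiratory chain itself was close to level. Of 76 nuclear subunit genes none differed 2-fold, 31 were higher, 29 lower and 16 not called, with a median of -0.01 that became 0.12 without composition scaling. Of 12 measured mitochondrially encoded genes, 5 were higher and 3 lower, with mt-Nd5 at 0.58 ± 0.049 and mt-Nd1 at -0.54 ± 0.032, and several have nuclear copies that share reads.

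**Figure D4:**
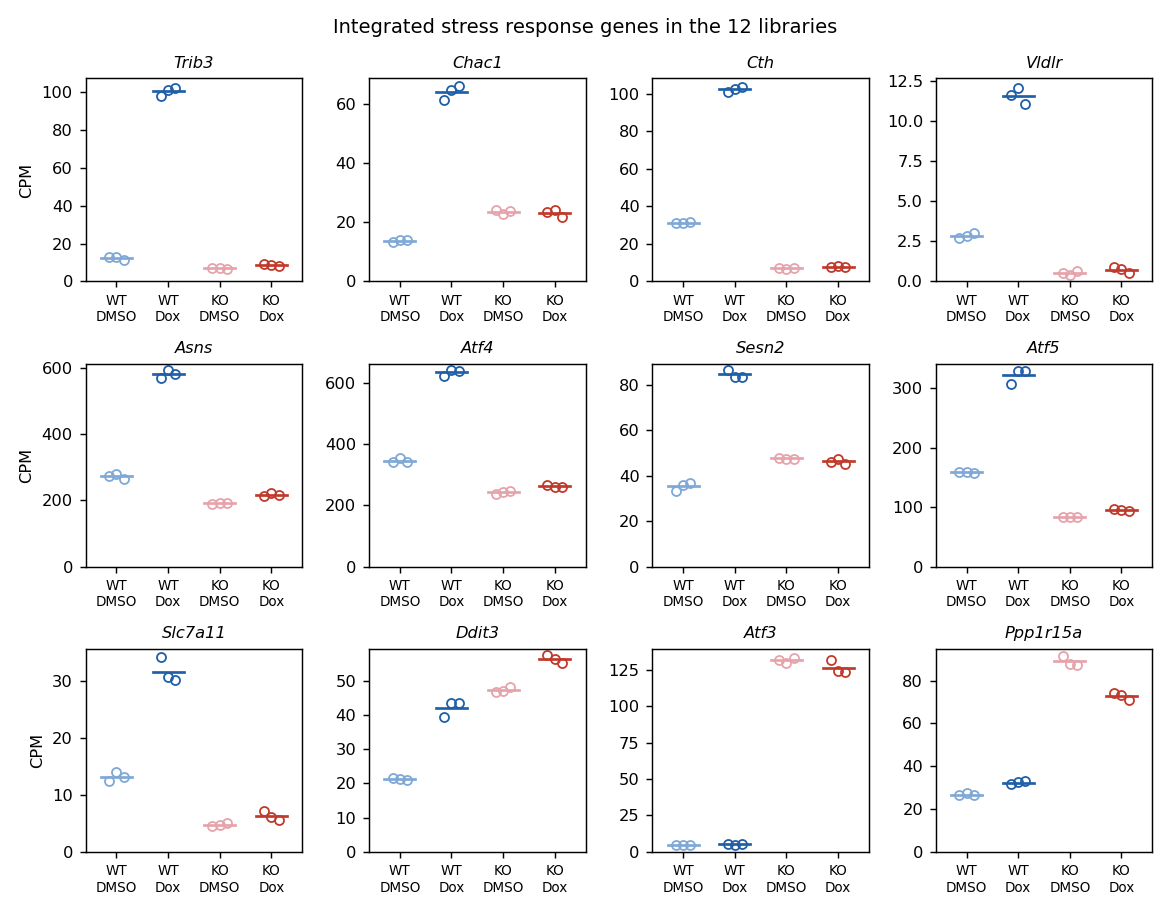
CPM of 12 integrated stress response genes in the 3 libraries of each of the 4 groups, on linear axes from 0, with a bar at each group mean. For Trib3, Chac1 and Cth the WT Dox libraries stood far above the other groups, and KO Dox lay close to KO DMSO, while Atf3 and Ppp1r15a were higher in KO with either treatment.

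Of 23 genes of cholesterol synthesis and uptake 18 were lower and 3 higher, mostly by less than 2-fold (3 and 2 past it), with the regulator gene Insig1 at -1.47 ± 0.030 and the sterol reductase gene Tm7sf2 higher at 1.31 ± 0.041. Of 29 hypoxia-inducible genes 21 were lower (10 at least 2-fold), among them the vasodilator peptide gene Adm (-3.51 ± 0.044), the mTORC1 inhibitor gene Ddit4 (-2.83 ± 0.037) and the glycolytic enzyme genes Eno1 (-1.22 ± 0.023) and Pkm (-1.10 ± 0.021). Of 26 antioxidant genes of NRF2 19 were lower (8 at least 2-fold, or 5 without composition scaling) and 6 higher (3 at least 2-fold). Within ferritin the heavy chain gene Fth1 stood at -2.19 ± 0.025 and the light chain gene Ftl1 at 1.06 ± 0.039, with near-identical pseudogenes of both. Of 17 measured lysine acetyltransferase genes other than Crebbp and Ep300, 10 were higher (2 at least 2-fold) and 6 lower. Kat2b, which encodes PCAF, an acetyltransferase that binds CBP and p300, had 26.4, 24.2 and 25.6 CPM in WT and 136, 133 and 135 CPM in KO (2.41 ± 0.030, SE, n = 3 and 3, edgeR adjusted p = 1.1e-27), while its paralog Kat2a stood at -0.99 ± 0.023. Of 17 metallothionein and zinc transporter genes 10 were higher, none 2-fold, and 4 lower, with Slc39a14 at -1.41 ± 0.027.

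Most of the 2-fold differences were also found between the genotypes with DMSO. That comparison shares no library with the one under doxycycline and called 11296 genes (89.4%), 3473 of them at least 2-fold (27.5%). At 2-fold 3088 genes passed in both with the same sign, which is 89% of the Dox list and 88.9% of the DMSO list, and 0 passed with opposite signs. Over the 12637 genes the log2 fold changes of both comparisons had a Pearson r of 0.977 and a Spearman rho of 0.966, as a description, since genes are not independent replicates. The test of the difference between the comparisons, the interaction of genotype and treatment, called 4107 genes (32.5%), 2295 higher with Dox (18.2%) and 1812 lower (14.3%), and 107 at 2-fold (0.847%), 30 higher (0.237%) and 77 lower (0.609%). Among protein-coding genes alone 68 were past 2-fold, and without KO DMSO replicate 1 there were 191. The 3 WT DMSO libraries and KO DMSO replicate 1 were low in processed pseudogenes, and a fit with a term for this set was made too. The set term is estimated only from KO DMSO replicate 1 against the other KO DMSO libraries. The difference then rests on that 1 KO DMSO library, so this fit cannot separate pseudogene content from other traits of it. Only medians of list members are given for it below. For 137 genes the sign of the genotype difference turned, and they were called in all 3 tests: 69 were higher in KO with DMSO and lower with Dox, and 68 the reverse.

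Genes of the integrated stress response were among those with the largest differences between the comparisons. Trib3 had 12.5 ± 0.905 CPM in WT DMSO, 101 ± 2.25 in WT Dox, 6.90 ± 0.487 in KO DMSO and 8.89 ± 0.515 in KO Dox (SD, n = 3 each), so that the genotype difference was -0.86 with DMSO and -3.50 with Dox, a difference of -2.64 ± 0.084 (4 groups of n = 3, SE; edgeR adjusted p = 4.9e-17). Chac1, whose product cleaves glutathione (ENSMUSG00000027313, chromosome 2, positions 119351229 to 119354381, plus strand), had 13.8 ± 0.240 CPM in WT DMSO, 64.1 ± 2.31 in WT Dox, 23.6 ± 0.664 in KO DMSO and 23.2 ± 1.36 in KO Dox, and changed from 0.78 to -1.46, a difference of -2.24 ± 0.062 (4 groups of n = 3, SE; edgeR adjusted p = 5.1e-18). Sesn2, a leucine sensor that restrains mTORC1, changed likewise from 0.43 to -0.87 (-1.30 ± 0.046), and Cth from -2.16 to -3.70 (-1.54 ± 0.063). Of the 27 genes of the list 23 lay lower in KO relative to WT with Dox than with DMSO and 1 higher. The median difference was -0.76, or -0.72 with the set term. Of 20 aminoacyl-tRNA synthetase genes 18 lay lower and 0 higher, and their median genotype difference was -0.50 with DMSO and -1.01 with Dox. The median difference between the comparisons was -0.44 for these genes, or -0.46 with the set term. The promoter of Chac1, the gene of this list whose sign turned with the largest difference, is shown with capitals at TGANGCAA on either strand, the form of the element bound by ATF4 with C/EBP partners.
Chac1 (chr2:119350992-119351241, plus strand): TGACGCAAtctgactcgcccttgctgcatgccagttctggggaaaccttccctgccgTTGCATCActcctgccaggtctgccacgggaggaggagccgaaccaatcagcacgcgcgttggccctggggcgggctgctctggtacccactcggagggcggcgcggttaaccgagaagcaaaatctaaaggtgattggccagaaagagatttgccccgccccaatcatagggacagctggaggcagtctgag
It held the element at 2 places, which begin 250 and 193 bases before the start, and 294 of 11688 windows (2.52%) of all tested protein-coding genes held it at least at 1 place.

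Inflammatory genes lay farther below WT with Dox as well. Cxcl5 had 1199 ± 23.2 CPM in WT DMSO, 616 ± 0.681 in WT Dox, 11.0 ± 0.288 in KO DMSO and 1.63 ± 0.127 in KO Dox, a difference of -1.79 ± 0.071 (4 groups of n = 3, SE; edgeR adjusted p = 2.9e-15). Saa3, an acute-phase protein gene, changed from -1.99 to -3.71 (-1.71 ± 0.098) and Ptx3, a soluble pattern receptor gene, from -2.37 to -3.70 (-1.33 ± 0.041). Ereg, an EGF receptor ligand, was higher in KO in both, but by 2.28 with DMSO and 0.94 with Dox (-1.34 ± 0.041). Of 33 NF-kappa B inflammatory genes 20 lay lower and 4 higher with Dox. Their median difference between the comparisons was -0.31, or -0.36 with the set term.

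**Figure D5:**
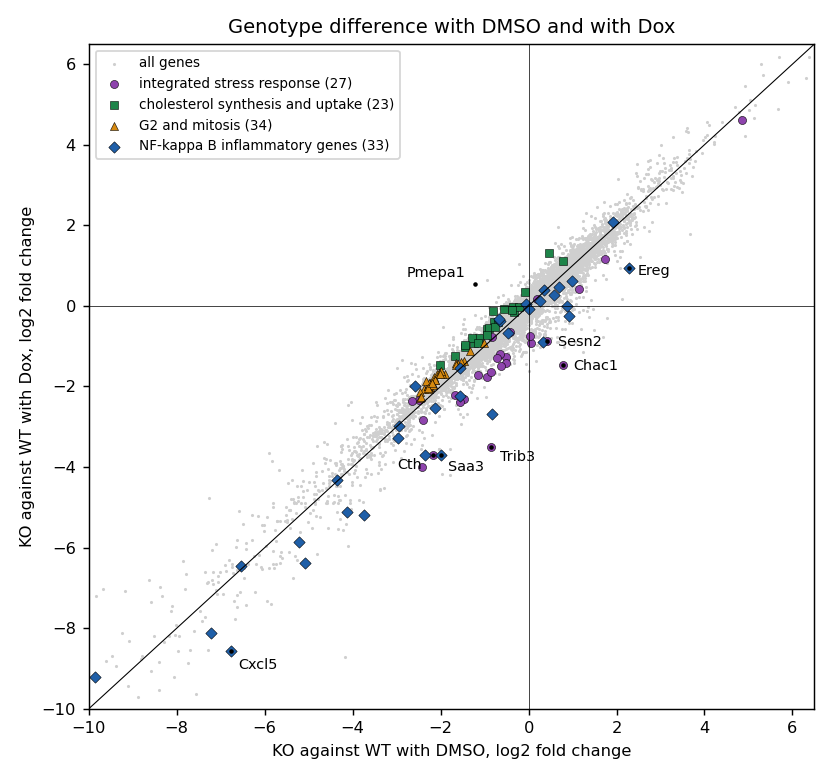
Log2 fold change of KO against WT with DMSO (x axis) and with Dox (y axis) for all genes (grey), with members of 4 lists marked, and the line of equal differences. Axes run from -10 to 6.5 and leave out 12 genes. Most integrated stress response genes lie below the line and the cholesterol genes above it.

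For other genes the difference lay higher with Dox. Pmepa1, which restrains TGF-beta signals by feedback (ENSMUSG00000038400, chromosome 2, positions 173224458 to 173276533, minus strand), had 34.6 ± 0.359 CPM in WT DMSO, 64.9 ± 2.14 in WT Dox, 15.0 ± 0.735 in KO DMSO and 94.7 ± 3.70 in KO Dox, and changed from -1.21 to 0.54, a difference of 1.75 ± 0.054 (4 groups of n = 3, SE; edgeR adjusted p = 3.1e-17). Smad9, a BMP-responsive SMAD, changed from -0.95 to 0.64 (1.59 ± 0.089). The sphingosine kinase gene Sphk1 and the carboxypeptidase inhibitor gene Lxn stayed lower in KO but by less, at -0.32 and -0.46 with Dox against -1.46 and -1.49 with DMSO (1.15 ± 0.039 and 1.03 ± 0.041 for the difference). Kctd11, an adaptor of ubiquitin ligases, and Tm7sf2 were higher in KO in both and farther from WT with Dox, at 1.31 and 0.46 with DMSO and 2.31 and 1.31 with Dox (differences of 0.99 and 0.85). Slc6a17, a neutral amino acid transporter, stayed lower in KO, at -2.65 with DMSO and -1.68 with Dox (0.97), and Npnt, a matrix ligand of integrins, turned from -0.59 to 0.27 (0.86). All 23 measured cholesterol genes lay higher with Dox, and their median genotype difference was -0.80 with DMSO and -0.54 with Dox. Their median difference between the comparisons was 0.35, or 0.38 with the set term. Of 34 G2 and mitosis genes 31 lay higher with Dox and 0 lower, and the median moved from -2.14 to -1.85. For them the median difference was 0.27, or 0.23 with the set term. Among the 3471 genes at least 2-fold apart with Dox, 593 had a called difference away from 0 and 654 towards it.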

How the data were processed

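RNA was sequenced in 12 libraries labelled by genotype and treatment, 3 per group, and the 6 Dox libraries were the ones compared here. The authors deposited raw read counts per gene, whole numbers with no normalisation. STAR 2.6.0a, HTSeq 0.10.0 and genome build GRCm38.p6 are named per the submitters' processing notes. Their settings, the gene annotation and the use of strand are not given in the sources used here, so reads of overlapping and antisense genes may be mixed. Rows that name no gene entered neither library sizes nor tests. In the Dox libraries they came, as a percent of all reads in the column, to 1.87 to 2.09 for unmapped, 6.24 to 6.57 for multimapping, 4.05 to 4.58 for no feature and 4.86 to 5.29 for ambiguous reads.

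All 12 libraries entered 1 quasi-likelihood fit with a mean per group in edgeR 4.0.16 on R 4.3.3, with TMM scaling, robust dispersions and no further filter on low counts. P-values were adjusted by Benjamini and Hochberg over 12637 genes at 0.05, and 2-fold also asks for an absolute log2 fold change of at least 1. Standard errors were derived from the fold change and its F statistic. For the largest losses, where KO reads are few, this makes them too small. Wisp2, with 0.304 to 0.464 CPM in KO Dox, has a value of 0.061 by this rule. Leaving out 1 Dox library at a time gave it fold changes of -9.68 to -9.38. CPM values are scaled by TMM. The same steps were also run on simulated data in which far fewer genes changed, and by smaller folds, than here. That run does not test the scaling or the calls in a setting like these data. Alternatives used limma 3.58.1, DESeq2 1.42.0, other scalings and filters, and fits leaving out libraries, which for the gene lists were chosen after seeing the data. Replicates shared their number but not their deviations, so the fit has no replicate block. All replicate pairs differed by more than sampling noise in a chi-square test, so each library counted as 1 sample. Positions are from GENCODE M21 and promoters from RefSeq, both on GRCm38.

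Genes named were Crebbp and Ep300, the 12 largest gains and 12 largest losses where the mean log2 CPM was 3 or more, the 6 genes with the smallest p on each side, the 8 largest differences between conditions in each direction, and members of the lists, not all of which are reported here. For the ranked sets, only protein-coding or long noncoding genes with a named symbol counted, and with Dox only those whose groups did not overlap. Gene lists and members were chosen with earlier results of these data known.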

Additional observations from a re-analysis of the deposited data

Results flagged for a closer look

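The difference between genotypes with Dox was itself different from that with DMSO, by the interaction term of the edgeR fit, for 4107 genes, 107 of them by at least 2-fold, and for 137 genes the direction turned. Of 199 genes named 133 were called in this test, beside 32.5% of all genes. Some were named because their difference was large, so this count is raised by the choice of genes. Besides those described above, it called Il6, which had 18.5 ± 0.616 CPM in WT DMSO, 9.52 ± 0.134 in WT Dox, 1.38 ± 0.0290 in KO DMSO and 0.257 ± 0.0795 in KO Dox, a difference of -1.45. Its KO Dox level was so low that its difference rests on few reads. Klf4 differed by -1.13, with genotype differences of -1.56 with DMSO and -2.69 with Dox, and Gadd45a, a stress-induced growth arrest gene, by -1.12, with -1.16 and -2.29. Tubb3 went the other way, by 1.05, with -5.37 and -4.32.

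The other named genes whose differences passed 2-fold were Trib3 at -2.64, Chac1 at -2.24, Cth at -1.54, Sesn2 at -1.30, Cxcl5 at -1.79, Saa3 at -1.71, Ptx3 at -1.33 and Ereg at -1.34 on the lower side. On the higher side were Pmepa1 at 1.75, Smad9 at 1.59, Sphk1 at 1.15 and Lxn at 1.03. The mean log2 CPM of processed pseudogenes was 0.248 to 0.790 in the 3 WT DMSO libraries and KO DMSO replicate 1 and 0.962 to 1.53 in the other 8. Its part in these differences was not tested, since the term for that set rests on KO DMSO replicate 1 alone.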

How the results depend on the processing

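The 3471 genes at least 2-fold apart became 3481 with RLE scaling, 3597 without composition scaling, 3077 among protein-coding genes alone and 3014 when tested against a 2-fold difference, and 3449 to 3516 on leaving out 1 Dox library at a time. DESeq2 called 3481 and limma-voom 3472.

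The count of genes whose difference from DMSO reached 2-fold, 107 with 77 lower, was less stable. It fell to 68, with 40 lower, among protein-coding genes, and to 56, with 33 lower, with a term for the 4 libraries low in processed pseudogenes. Leaving out 1 library at a time gave 80 to 191, with 53 to 160 lower and 27 to 37 higher. The cause was not tested beyond these fits.

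Directions turned only for values near 0. Without composition scaling Cd14 moved from -0.056 to 0.077, Cd44 from -0.048 to 0.085 and the respiratory chain median to 0.12, or 0.038 with upper-quartile scaling. Hoxa5 was -0.0078 with RLE scaling and with DESeq2 and -0.0098 with a filter of 1 CPM in 6 libraries. On leaving out 1 library at a time Hoxa5 ran from -0.032 to 0.0080, Csf1r from -0.088 to 0.23, the respiratory chain median from -0.042 to 0.030 and that of mitochondrially encoded genes from -0.029 to 0.066. Nfkb1 was called without WT Dox replicate 1, at 0.055.

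Same-numbered WT Dox and KO Dox libraries did not deviate together (r of -0.108, 0.0311 and -0.0584 across genes). The highest r of any WT Dox with any KO Dox library was 0.141, for WT Dox replicate 1 and KO Dox replicate 3. With a replicate block 3471 genes were 2-fold apart and 104 differed from DMSO by 2-fold. At this depth genes with few reads in KO limit the precision of the largest losses.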
